A study of Mus musculus with 20 samples.

Results

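The difference between the stress effect of male mice and that of female mice was estimated for each gene, as stressed minus control in males less stressed minus control in females, on the log2 scale. All 20 of the study's 20 libraries entered it, 5 each from unstressed females, stressed females, unstressed males and stressed males. A negative difference means that the stress effect was more positive in females, and a positive one that it was more positive in males. The genes described are the 12507 on autosomes out of 12988 in the table, and 472 X-linked genes, 4 Y-linked genes and 5 genes without a single chromosome were fitted with them but are not described. Of most interest were genes whose levels after stress lay on one side of the control level in females and on the other side in males.

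Tissue came from the anterodorsal part (adBNST) of the bed nucleus that lies along the stria terminalis of mice that entered the study at 7 to 9 weeks of age, and the sources used here give neither strain nor genotype. Stressed mice went through chronic variable mild stress (CVMS), 6 weeks of minor stressors in random order, such as damp or missing bedding, a tilted cage, isolation, cold swims, predator sounds and restraint. They were killed 1 hour after their last stressor, wet bedding, so a long-lasting response and an acute response to that stressor cannot be told apart. Controls had no such schedule, and mice of all 4 groups were anaesthetized with ketamine before decapitation. Each group had 15 mice, and each library held microdissected tissue pooled from 3 of them, so p-values rest on the spread between 5 pools per group and not between single mice. The stage of the estrous cycle is not given in the sources used here.

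The adBNST is a forebrain relay of the extended amygdala, made largely of inhibitory neurons, that links limbic inputs to the hypothalamic and brainstem centres of the hormonal and autonomic stress responses. Stress raises blood corticosterone, which enters cells, binds the glucocorticoid and mineralocorticoid receptors and drives target genes such as Sgk1, Fkbp5 and Per1 quickly. Heat shock proteins are chaperones that hold other proteins in their folded shape and are switched on by heat shock factor when proteins are damaged. The region is larger or otherwise different in males and females of several mammals, and it is a classic site for studies of sex differences.

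Library totals ran from 2707881 to 33595388 counts, and levels are given as CPM, counts scaled to the library total with TMM factors. Sex-linked transcripts matched the labelled sex in 20 of 20 libraries. Markers of inhibitory neurons were present in every library, with Gad2, a GABA-synthesizing enzyme, at 983 to 1248 CPM and the vesicular GABA transporter Slc32a1 at 265 to 342 CPM. Slc17a7, the cortical glutamate transporter, lay between 1.80 and 4.62 CPM. Slc17a6, which marks excitatory neurons of the thalamus and hypothalamus, had a median of 24.7 CPM and reached 72.2 CPM in female stressed 2. For that reason several results that turn on that library are given without it as well. Ppp1r1b, a marker of striatal neurons, ran from 341 to 815 CPM, and its relation to the groups is described with the striatal list.

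No gene passed the interaction test. In edgeR's quasi-likelihood test with Benjamini-Hochberg adjustment over all 12988 genes, the source of every adjusted p below unless another tool is named, 0 genes had an adjusted p under 0.05. At an unadjusted p under 0.05 in edgeR's test there were 1347 of all genes. By their own adjusted p under 0.05, DESeq2 called 22 of all genes (19 autosomal) and limma-voom called 0. At an adjusted p under 0.10 there were 6 autosomal genes, 0.048% of those tested, all with a negative difference: Arrdc2, Sgk1, Tbkbp1, Sh2b2, Gpr161 and Trib1.

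Among autosomal genes, 1293 (10.3%) had an unadjusted p under 0.05 for the difference, 627 negative and 666 positive. Of these, 593 (4.74% of autosomal genes) were higher with stress in females and lower in males, and 574 (4.59%) were lower in females and higher in males. Together these 1167 genes made up 90.3% of the 1293, a share that follows in part from the choice, since a large difference needs effects that lie apart. Only 42 of the 1167 had an unadjusted p under 0.05 in each sex on its own. For 601 genes this held in males only, for 258 in females only and for 266 in neither sex. Whatever the p, 24.8% of autosomal genes were higher in stressed females and lower in stressed males and 22.8% the reverse. The median over all autosomal genes was -0.00027 for the stress effect in females, -0.0053 in males and 0.0028 for the difference. TMM scaling centres the libraries on each other, so medians near 0 say little in themselves. The 593 and 574 genes of opposite effects were 631 and 521 with DESeq2 size factors and 536 and 715 without female control 3.

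The 42 genes that differed in opposite directions in both sexes, each at an unadjusted p under 0.05, comprised 27 that were higher in stressed females and lower in stressed males (0.216% of autosomal genes) and 15 with the reverse pattern (0.12%). Another 77 genes (0.616%) passed the same level in both sexes with the same sign. Ranked by the larger of the p-values of females and males, the first of the 27 were Tbkbp1, Sh2b2, Trib1, Gpr161, Fbln2 and Plekhf1, and the first of the 15 were Ldlrad4, Rgs4, Prkci, Cldn5, Camk2n1 and Mettl9. Rgs4, which shuts off signalling by G proteins, differed by -0.36 (SE 0.13) with stress in females and by 0.37 (SE 0.13) in males. The methyltransferase gene Mettl9 differed by -0.16 (SE 0.06) and 0.14 (SE 0.06). Differences between the sexes' effects among the 42 ranged in size from 0.17 to 1.27. With DESeq2 size factors in place of TMM there were 41 such genes, 31 in the first direction and 10 in the second, of which 37 were among the 42. That moved the share of the first direction from 64.3% to 75.6%. The count depended on single libraries: it was 93 without female control 2, 25 without female control 5, 27 without female stressed 2 (19 and 8 by direction), 65 without female stressed 3 and 74 without female stressed 5 (27 and 47 by direction). Of the 27 left without female stressed 2, 25 were among the 42. With the striatal score as a covariate the count was 103, 58 and 45 by direction.

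**Figure D1:**
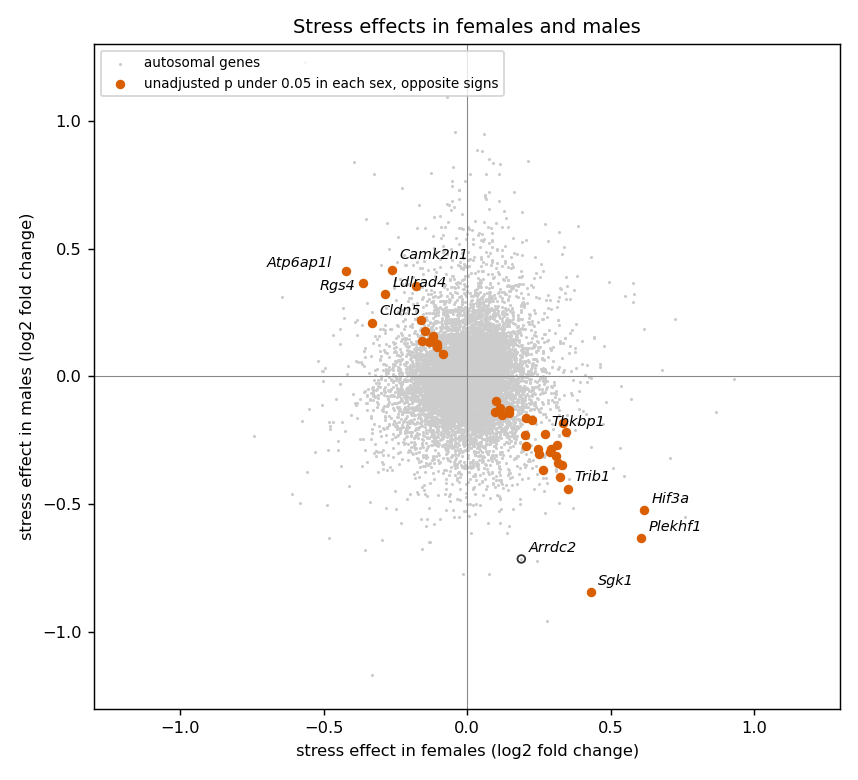
Log2 fold change with stress in females (horizontal axis) against males (vertical axis) for each autosomal gene in grey, with the 42 genes at an unadjusted p under 0.05 in each sex and opposite signs in orange and Arrdc2 as an open circle. Sgk1, Hif3a and Plekhf1 lie farthest toward higher in females and lower in males, and Rgs4, Camk2n1 and Atp6ap1l farthest the other way.

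A stricter look asked whether control and stressed libraries overlapped at all. In a single autosomal gene (0.008%), Prkci, the groups were separate in both sexes in opposite directions, and in 5 genes (0.04%) they were separate in the same direction. Prkci encodes an atypical protein kinase C that sets up cell polarity. Here and below, library values run from replicate 1 to 5. Prkci stood at 76.9, 71.9, 73.5, 77.9 and 75.1 CPM in females without stress and at 68.6, 69.8, 68.2, 69.4 and 71.5 CPM in females with it. Prkci in males stood at 67.4, 67.1, 69.9, 70.1 and 64.6 CPM without stress and at 70.3, 74.1, 73.3, 75.1 and 76 CPM with it. All 5 stressed females lay below the controls, and all 5 stressed males lay above theirs. The shifts were small, -0.11 (SE 0.04) in females and 0.13 (SE 0.04) in males, with a difference of 0.23 (SE 0.06, adjusted p 0.260).

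The genes that were higher in stressed females and lower in stressed males with the smallest p for the difference were Arrdc2, Sgk1, Tbkbp1, Sh2b2, Gpr161, Trib1, Zfp57, Spry4, Arid5b, Plekhf1, Fbln2 and Ddit4, with differences from -1.27 to -0.48. Of these 12, 11 had their highest group mean in male controls and 9 their lowest in female controls. These counts follow in part from the choice. Its signs leave male controls or stressed females for the highest mean, and female controls or stressed males for the lowest. Arrdc2 (chr8:70835129-70839720, mm10, minus strand) encodes an arrestin-domain adaptor for ubiquitin ligases and is on the list of glucocorticoid-induced genes. Arrdc2 stood at 9.13, 9.39, 8.61, 10.5 and 8.22 CPM in females without stress and at 10.3, 10.8, 9.72, 9.6 and 10.9 CPM in females with it. Arrdc2 in males stood at 10.4, 17.2, 14.9, 13.5 and 15.1 CPM without stress and at 8.92, 9.15, 7.54, 8.0 and 9.61 CPM with it. The male controls lay above every other group except for control 1, and they did not overlap the stressed males, while the female groups overlapped. Here and below, genes chosen by a small p for the difference tend to have separate groups. The share of all autosomal genes with groups separate in a single sex is not given here. For Arrdc2 the stress effect was 0.19 (SE 0.11) in females and -0.71 (SE 0.10) in males, a difference of -0.90 (SE 0.15, adjusted p 0.0507). That adjusted p was 0.000584 with DESeq2 and at most 0.21 among the alternatives, and with 1 library left out it lay between 0.00114 and 0.146.

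Sgk1 (chr10:21882184-21999903, plus strand), the serum- and glucocorticoid-regulated kinase, tunes ion channels and transporters at the cell surface. Sgk1 stood at 63.2, 51.6, 51.4, 63.6 and 65.8 CPM in females without stress and at 96.4, 87, 64, 65.7 and 82.1 CPM in females with it. Sgk1 in males stood at 74.1, 127, 117, 112 and 178 CPM without stress and at 59.9, 74.8, 75.4, 59.8 and 69.6 CPM with it. Stressed females 3 and 4 overlapped the female controls and the other 3 did not, and male control 1 was the sole male control within the range of the stressed males. For Sgk1 the stress effect was 0.43 (SE 0.16) in females and -0.84 (SE 0.16) in males, a difference of -1.27 (SE 0.23, adjusted p 0.0507). Its adjusted p was 0.00179 with DESeq2 and 0.21 without female control 4 and female stressed 2, and it was 0.00114 without male control 1. Over the fits without a single library the difference lay between -1.41 and -1.08. Male control 1 was also the lowest male control for Arrdc2, Trib1, Spry4, Arid5b, Plekhf1 and Ddit4.

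Tbkbp1 (chr11:97136171-97151495, minus strand) encodes an adaptor of TBK1, a kinase of innate immune signalling. Tbkbp1 stood at 56.5, 55.8, 46.7, 46.7 and 45.2 CPM in females without stress and at 64.3, 63.6, 62.1, 60.6 and 56.1 CPM in females with it. Tbkbp1 in males stood at 68.5, 61.1, 67.3, 65.1 and 60.7 CPM without stress and at 56.6, 54.9, 52.7, 55.5 and 56.6 CPM with it. Stressed males lay below all male controls, and of the stressed females only replicate 5 fell within the range of the controls. For Tbkbp1 the stress effect was 0.27 (SE 0.06) in females and -0.22 (SE 0.06) in males, a difference of -0.49 (SE 0.09, adjusted p 0.0507). Sh2b2 (chr5:136218147-136246556, minus strand) encodes an adaptor of the insulin receptor and of other tyrosine kinases. Sh2b2 stood at 6.02, 7.27, 6.82, 5.65 and 5.8 CPM in females without stress and at 8.41, 8.88, 8.07, 8.08 and 7.17 CPM in females with it. Sh2b2 in males stood at 9.26, 9.15, 9.98, 8.73 and 8.63 CPM without stress and at 8.12, 7.13, 6.75, 7.26 and 6.78 CPM with it. The male groups were separate here too, and the female groups overlapped by 1 library on each side. For Sh2b2 the stress effect was 0.33 (SE 0.09) in females and -0.35 (SE 0.09) in males, a difference of -0.68 (SE 0.13, adjusted p 0.0633). Gpr161 (chr1:165295789-165326745, plus strand) encodes a receptor of the primary cilium that restrains Hedgehog signalling. Gpr161 stood at 18.6, 19.96, 17.9, 12 and 17.2 CPM in females without stress and at 22.8, 23.2, 21.8, 18.7 and 21.2 CPM in females with it. Gpr161 in males stood at 29.4, 26.1, 28.5, 26.1 and 24.9 CPM without stress and at 23, 21.9, 19.1, 19.7 and 21.5 CPM with it. Again the male groups did not overlap and the female groups did. For Gpr161 the stress effect was 0.27 (SE 0.09) in females and -0.37 (SE 0.08) in males, a difference of -0.63 (SE 0.12, adjusted p 0.0633). For Tbkbp1, Sh2b2 and Gpr161 the adjusted p reached 0.246, 0.31 and 0.21 among the alternatives and was lowest with DESeq2 at 0.00161, 0.0254 and 0.00179.

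The other 7 genes of this direction had smaller or noisier differences. Trib1, a pseudokinase that steers proteins to ubiquitin ligases, averaged 7.98 ± 0.583 CPM in unstressed females and 10.2 ± 0.951 CPM in stressed ones (SD over 5 libraries, as for every ± below). In males Trib1 averaged 11.5 ± 1.89 and 8.64 ± 1.1 CPM, and its difference was -0.79 (SE 0.15, adjusted p 0.0796). Zfp57, a zinc finger protein that guards imprinted methylation, averaged 13.6 ± 1.88 and 16.1 ± 3.13 CPM in control and stressed females and 21.3 ± 2.46 and 13.1 ± 2.55 CPM in males, so that most of its difference of -0.90 (SE 0.19, adjusted p 0.136) came from males. Spry4, an inhibitor of receptor tyrosine kinase signalling, had the reverse balance, with 0.33 (SE 0.08) in females and -0.18 (SE 0.08) in males. Plekhf1, a lysosomal phosphoinositide-binding protein, averaged 2.66 ± 0.396 and 3.89 ± 0.677 CPM in females and 5.37 ± 1.71 and 3.68 ± 0.677 CPM in males. Its stress effects were 0.61 in females and -0.63 in males. Arid5b, a DNA-binding cofactor of a histone demethylase, Fbln2, a matrix protein, and Ddit4, an inhibitor of the growth kinase complex mTORC1, differed by -0.48 (SE 0.11, adjusted p 0.195), -0.62 (SE 0.15, adjusted p 0.260) and -0.56 (SE 0.14, adjusted p 0.260).

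**Figure D2:**
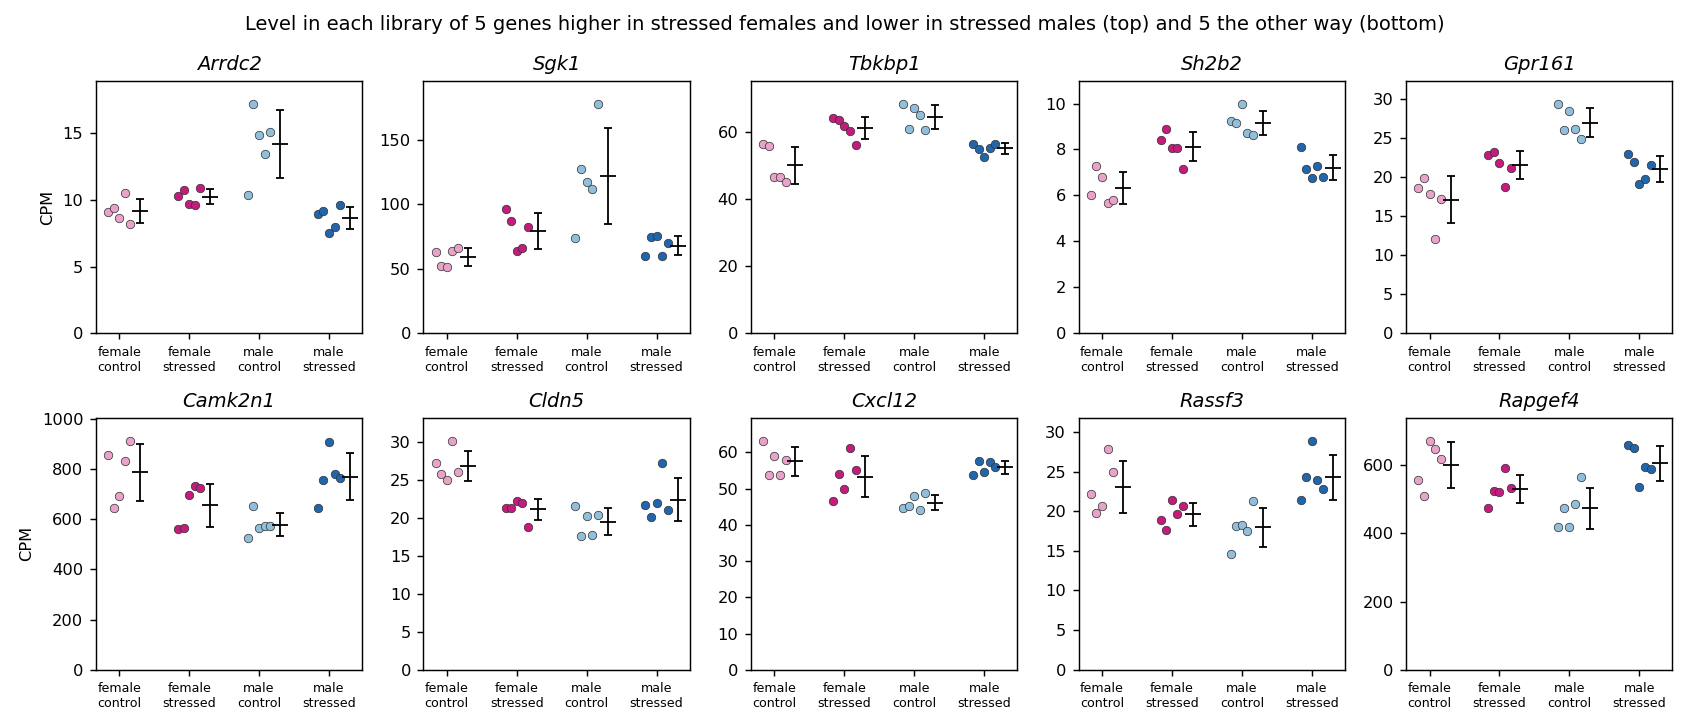
Level in CPM (vertical axes, from 0) of 10 genes in each library, by group; points are libraries and the cross and bars give mean ± SD of 5. In the upper row the male controls have the highest mean of each gene, and the female controls the lowest except for Arrdc2, and in the lower row the male controls have the lowest mean of each gene. The choice of genes by opposite signs limits which groups can be highest or lowest.

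In the opposite direction, lower in stressed females and higher in stressed males, the 12 first genes were Camk2n1, Cldn5, Cxcl12, Rassf3, Rapgef4, Calb1, Galnt13, Ldlrad4, Rasgef1b, Cep128, Prkci and Tmem132b, with differences from 0.23 to 0.71. Male controls had the lowest mean in 12 of 12 and female controls the highest in 7 of 12. Here too the choice by signs left only male controls or stressed females for the lowest mean, and female controls or stressed males for the highest. Camk2n1 (chr4:138454314-138460123, plus strand) encodes an inhibitor of CaMKII, the calcium-activated kinase of synaptic plasticity. Camk2n1 stood at 854, 643, 690.1, 831 and 913 CPM in females without stress and at 560.2, 565, 696, 733 and 723 CPM in females with it. Camk2n1 in males stood at 525, 654, 564, 574 and 572 CPM without stress and at 643, 755, 908, 778 and 764 CPM with it. Both pairs of groups overlapped, in males only through control 2 and stressed 1. For Camk2n1 the stress effect was -0.26 (SE 0.10) in females and 0.41 (SE 0.10) in males, a difference of 0.68 (SE 0.14, adjusted p 0.136). With the striatal score as a covariate its male effect was 0.14 and its female effect -0.27.

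Cldn5 (chr16:18776847-18778262, plus strand) encodes claudin-5, the tight-junction protein that seals brain capillaries. Cldn5 stood at 27.2, 25.8, 25, 30.1 and 26 CPM in females without stress and at 21.3, 21.3, 22.2, 21.9 and 18.8 CPM in females with it. Cldn5 in males stood at 21.5, 17.6, 20.3, 17.7 and 20.3 CPM without stress and at 21.7, 20.1, 21.9, 27.2 and 21 CPM with it. All stressed females lay below all female controls, whereas the male groups overlapped and stressed male 4 stood apart. For Cldn5 the stress effect was -0.33 (SE 0.08) in females and 0.21 (SE 0.08) in males, a difference of 0.54 (SE 0.12, adjusted p 0.136). Cxcl12 (chr6:117168535-117181367, plus strand) encodes a chemokine that vessels, meninges and some neurons release. Cxcl12 stood at 63.2, 53.8, 58.9, 53.8 and 57.9 CPM in females without stress and at 46.5, 54, 49.9, 61.2 and 55 CPM in females with it. Cxcl12 in males stood at 44.6, 45.2, 47.9, 44.1 and 48.8 CPM without stress and at 53.6, 57.6, 54.7, 57.2 and 56.1 CPM with it. For this gene it was the male groups that were separate. For Cxcl12 the stress effect was -0.11 (SE 0.06) in females and 0.28 (SE 0.06) in males, a difference of 0.39 (SE 0.09, adjusted p 0.195). Rassf3 (chr10:121410350-121476347, minus strand) encodes a Ras-association domain protein. Rassf3 stood at 22.2, 19.7, 20.7, 27.9 and 24.9 CPM in females without stress and at 18.9, 17.7, 21.4, 19.6 and 20.6 CPM in females with it. Rassf3 in males stood at 14.6, 18.2, 18.2, 17.5 and 21.4 CPM without stress and at 21.4, 24.3, 28.9, 24 and 22.7 CPM with it. Stressed males lay above all male controls, by a narrow margin, and the female groups overlapped. For Rassf3 the stress effect was -0.19 (SE 0.10) in females and 0.44 (SE 0.10) in males, a difference of 0.62 (SE 0.14, adjusted p 0.195). Rapgef4 (chr2:71981240-72257474, plus strand) encodes Epac2, which turns cAMP signals into activity of the small GTPase Rap. Rapgef4 stood at 555, 510.4, 672, 646 and 618 CPM in females without stress and at 475, 525, 521, 591 and 534 CPM in females with it. Rapgef4 in males stood at 419.8, 475, 418, 487 and 565 CPM without stress and at 660.0, 651, 536, 594 and 588 CPM with it. Both pairs of groups overlapped. For Rapgef4 the stress effect was -0.18 (SE 0.09) in females and 0.35 (SE 0.09) in males, a difference of 0.53 (SE 0.12, adjusted p 0.195). With DESeq2 the adjusted p was 0.0351 for Cldn5, 0.0407 for Cxcl12, 0.0351 for Rassf3 and 0.0321 for Rapgef4, and over the alternatives it reached 0.373, 0.41, 0.542 and 0.542.

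The remaining genes of this direction have varied roles. Calb1, a calcium-buffering protein, averaged 352 ± 36.4 and 314 ± 35.9 CPM in control and stressed females and 279.7 ± 30.3 and 355 ± 19.5 CPM in control and stressed males, a difference of 0.51 (SE 0.12, adjusted p 0.195). Rasgef1b, a guanine nucleotide exchange factor, differed by 0.69 (SE 0.17, adjusted p 0.259). Ldlrad4, an inhibitor of TGF-beta signalling, had similar effects on either side of 0, -0.29 (SE 0.10) in females and 0.32 (SE 0.10) in males. The glycosyltransferase gene Galnt13, the centriole gene Cep128 and the membrane protein gene Tmem132b had larger effects in males than in females, with female effects of -0.10 (SE 0.06), -0.05 (SE 0.12) and -0.06 (SE 0.06) against male effects of 0.25 (SE 0.06), 0.65 (SE 0.12) and 0.26 (SE 0.05). Of the 19 autosomal DESeq2 calls, 10 were negative, 19 had opposite signs and 18 were among the 24 genes named in these directions. The other call was Hif3a.

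Genes induced by glucocorticoids leaned to one side. Of 21 autosomal members of the list, 9 were higher in stressed females and lower in stressed males at a difference with an unadjusted p under 0.05, against 4.74% of all autosomal genes, and 1 had the reverse pattern. No member had an adjusted p under 0.05, and Sgk1 and Arrdc2 had one under 0.10. The median effect over the 21 was 0.19 in females, -0.12 in males and -0.40 for the difference, and 18 of 21 differences were below 0 against 49% of autosomal genes. The median difference stayed between -0.54 and -0.32 in all alternatives, and leaving out single libraries gave counts from 8 to 11 in place of 9. Effects above 0 numbered 17 of 21 in females and 7 of 21 in males, against 49.9% and 48% of autosomal genes. The X-linked Tsc22d3 was left out of these counts. The list was chosen with earlier results of these libraries known, so its direction is not independent evidence.

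The 9 members were Sgk1, Arrdc2, Nfkbia, Klf15, Ddit4, Plin4, Sult1a1, Hif3a and Tiparp. Hif3a, a hypoxia-inducible factor subunit, averaged 7.82 ± 1.26 CPM in unstressed females and 12.1 ± 2.36 CPM in stressed ones. In males it averaged 14.4 ± 4.08 and 10.1 ± 2.8 CPM, with a difference of -1.14 (SE 0.29, adjusted p 0.261), and the adjusted p ran from 0.0431 with DESeq2 to 0.569 over the alternatives. Nfkbia, the inhibitor that holds NF-kB in the cytoplasm, differed mainly in males, with 0.12 (SE 0.14) in females and -0.43 (SE 0.13) in males. Klf15, a metabolic transcription factor, and Tiparp, a mono-ADP-ribosyltransferase, differed mainly in females, by 0.21 (SE 0.06) and 0.29 (SE 0.11), against -0.12 (SE 0.06) and -0.09 (SE 0.10) in males. Plin4, a lipid droplet protein, differed by 0.87 (SE 0.28) in females and -0.14 (SE 0.27) in males, and Sult1a1, a sulfotransferase, by 0.19 (SE 0.13) and -0.28 (SE 0.12). The exception, Gpd1, an enzyme that links glycolysis to lipid synthesis, had effects of -0.12 (SE 0.14) and 0.50 (SE 0.14).

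Not every classic target followed. Fkbp5, a chaperone that restrains the glucocorticoid receptor, averaged 37 ± 4.59 and 40.1 ± 3.84 CPM in control and stressed females and 44.8 ± 8.18 and 47.6 ± 3.52 CPM in males, with a difference of -0.06 (SE 0.14, adjusted p 0.953) whose sign changed without male control 2. Per1, a clock gene that glucocorticoids also induce, was higher by 0.46 (SE 0.11) in females and by 0.04 (SE 0.11) in males. Its effect was thus more positive in females, as for most of the list, but its effects did not oppose each other. The metallothionein genes Mt1 and Mt2 had differences of -0.01 (SE 0.13, adjusted p 0.999) and 0.15 (SE 0.13, adjusted p 0.702). The 12 corticosteroid receptors and co-chaperones held 1 gene of each direction, beside 4.74% and 4.59% of autosomal genes. These were the co-chaperone Stip1 at -0.19 (SE 0.09, adjusted p 0.480) and the coactivator Ncoa1 at 0.15 (SE 0.07, adjusted p 0.475). Without female stressed 2 this list had 0 of each.

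The upstream bases of Sgk1 are shown because this gene had the largest difference of the 42 and its known regulator reads such sequence. The window covers the 250 bases before a RefSeq start of Sgk1 (GRCm38.p6, chr10:21993640-21993889, plus strand), with a match to ACANNNTGT, the spaced half-sites of a glucocorticoid response element, in capitals.
Sgk1: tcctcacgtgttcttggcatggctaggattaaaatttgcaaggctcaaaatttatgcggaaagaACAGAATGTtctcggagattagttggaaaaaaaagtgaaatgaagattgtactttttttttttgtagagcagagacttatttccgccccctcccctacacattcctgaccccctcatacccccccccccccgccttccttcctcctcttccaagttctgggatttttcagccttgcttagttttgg
The match begins 186 bases before the start, and 2 of the 6 Sgk1 windows in the RefSeq table held a match on either strand. The same letters, which read alike on both strands, occurred upstream of 3 of the 19 list genes with a window (15.79%) and of 429 of 9934 autosomal genes (4.319%). The Arrdc2 window had none. A match is a description of the letters and not a measured binding site.

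**Figure D3:**
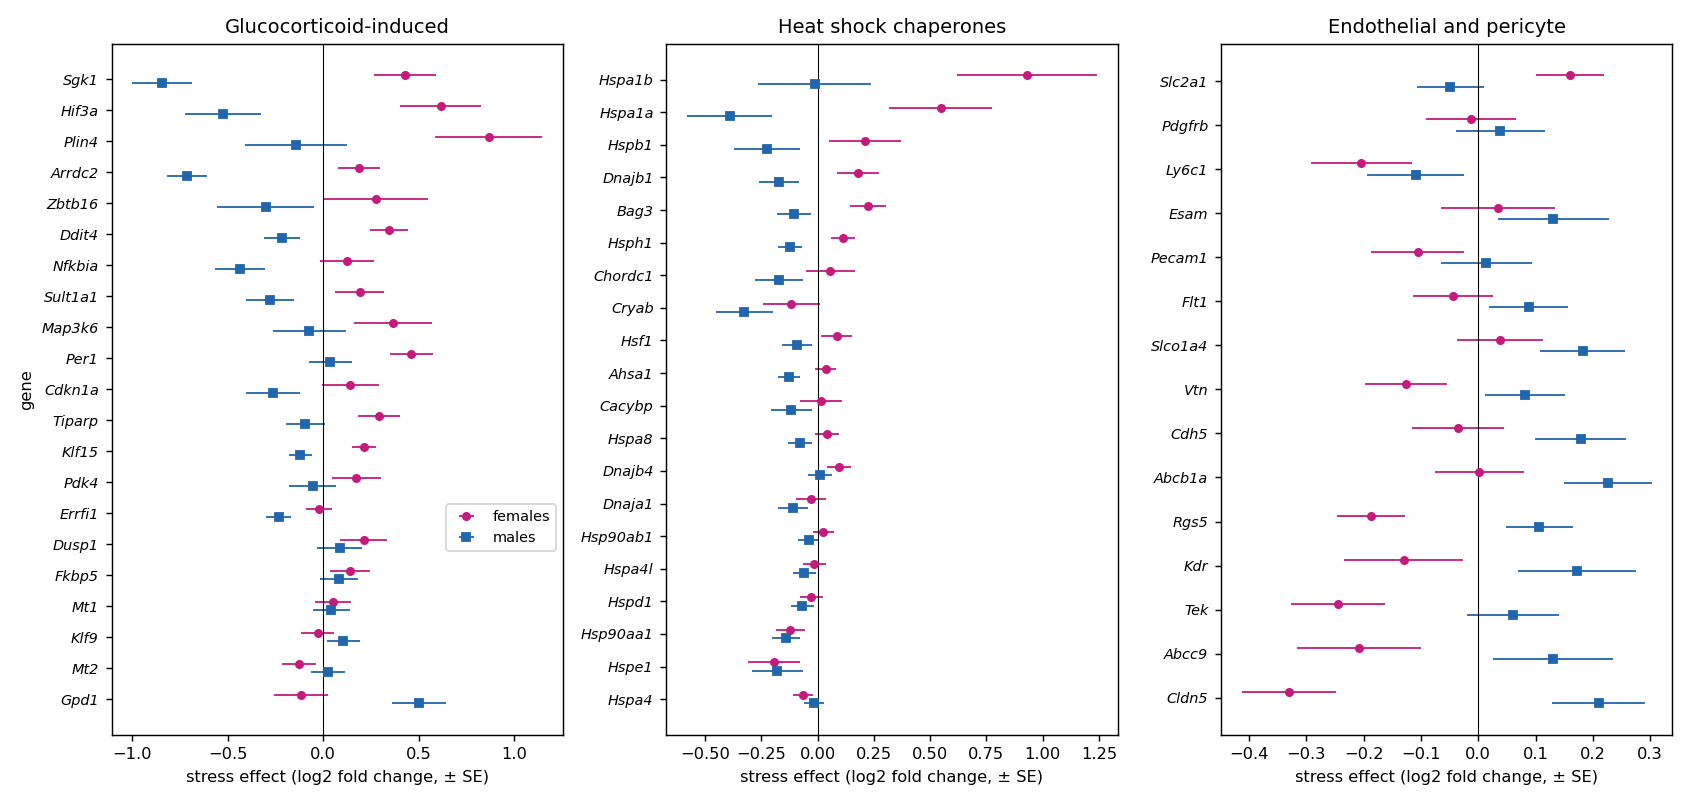
Stress effect (log2 fold change ± SE, horizontal axes) of each autosomal member of 3 gene lists in females (circles) and males (squares), ordered by the difference. In the glucocorticoid-induced and heat shock panels most circles lie to the right of their squares, 18 of 21 and 18 of 20, and in the endothelial and pericyte panel 14 of 15 lie to the left.

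Heat shock chaperones had the same lean with smaller differences. Of 20 members, 6 were higher in stressed females and lower in stressed males at an unadjusted p under 0.05 for the difference, and 0 had the reverse pattern, beside backgrounds of 4.74% and 4.59%. The median was 0.04 in females, -0.11 in males and -0.15 for the difference, with 18 of 20 below 0, and the median difference stayed between -0.18 and -0.08 in all alternatives. The count of 6 was 4 without male stressed 5 and 8 without female control 1. No member had an adjusted p under 0.10. The 6 were the inducible HSP70 genes Hspa1a and Hspa1b, Hsph1 and Dnajb1, which act as exchange factor and co-chaperone for HSP70, the co-chaperone Bag3 and the HSP90 activator Ahsa1.

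Hspa1a averaged 2.38 ± 0.201 CPM in unstressed females and 3.49 ± 0.866 CPM in stressed ones, and 5.64 ± 1.09 and 4.17 ± 1.34 CPM in control and stressed males. Its difference was -0.94 (SE 0.30, adjusted p 0.330), and that of Hspa1b -0.94 (SE 0.40, adjusted p 0.432), but these neighbouring genes are nearly identical, so how reads were divided between them is uncertain. Hsph1 averaged 357 ± 25.4 and 385 ± 11.2 CPM in females and 418 ± 21.1 and 384 ± 24.8 CPM in males, a difference of -0.24 (SE 0.08, adjusted p 0.335). Dnajb1 averaged 47.1 ± 2.67 and 53.5 ± 4.76 CPM in females and 70.7 ± 8.41 and 62.3 ± 8.83 CPM in males, a difference of -0.35 (SE 0.13, adjusted p 0.364). Bag3 differed by -0.33 (SE 0.11, adjusted p 0.348) and Ahsa1 by -0.16 (SE 0.07, adjusted p 0.418). Among constitutive chaperones, the differences of Hspa8, Hsp90ab1 and Hspd1 were -0.12 (SE 0.08, adjusted p 0.604), -0.06 (SE 0.07, adjusted p 0.779) and -0.04 (SE 0.07, adjusted p 0.911).

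The upstream windows of both HSP70 genes show how alike they are and where the heat shock factor motif falls. Each is the 250 bases before the RefSeq start (GRCm38.p6, minus strand; Hspa1a chr17:34972157-34972406, Hspa1b chr17:34959239-34959488), with a match to GAANNTTC or TTCNNGAA, facing repeats of the heat shock element, in capitals.
Hspa1a: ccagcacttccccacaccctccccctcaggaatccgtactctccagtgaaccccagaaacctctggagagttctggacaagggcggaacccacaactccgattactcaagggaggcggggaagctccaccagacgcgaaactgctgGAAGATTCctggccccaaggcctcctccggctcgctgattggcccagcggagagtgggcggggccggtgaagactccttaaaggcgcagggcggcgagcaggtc
Hspa1b: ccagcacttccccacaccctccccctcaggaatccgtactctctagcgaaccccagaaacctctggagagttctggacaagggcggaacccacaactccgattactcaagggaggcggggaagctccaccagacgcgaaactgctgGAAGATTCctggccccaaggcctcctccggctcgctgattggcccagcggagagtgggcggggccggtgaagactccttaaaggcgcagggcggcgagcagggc
The windows are identical at 247 of 250 positions, and the match begins 104 bases before the start in each. Both strands read the same for either form of the motif, and it occurred upstream of 8 of the 15 heat shock genes with a window (53.33%) and of 1177 of 9934 autosomal genes (11.85%). Among the other heat shock genes named above for opposite effects, Hsph1 had a match, and the windows of Dnajb1, Bag3 and Ahsa1 had none.

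Vessel genes leaned the other way. Of 15 endothelial and pericyte markers, 5 were lower in stressed females and higher in stressed males at an unadjusted p under 0.05 for the difference (background 4.59%), namely Cldn5, Tek, Kdr, Rgs5 and Abcc9, and 1, the glucose transporter Slc2a1, had the reverse pattern. The median was -0.11 in females, 0.11 in males and 0.21 for the difference, with 14 of 15 above 0, and the median difference stayed between 0.14 and 0.26 in all alternatives. The count was 3 in place of 5 without female control 3, female stressed 3, male control 2 or male stressed 2, and it was 3 with the striatal score as a covariate. No member had an adjusted p under 0.10. Without stress the list's score ranged from 0.0030 to 0.11 for females and from -0.17 to -0.0063 for males. With stress it ranged from -0.10 to 0.04 for females and from -0.06 to 0.11 for males. In such bulk tissue, fewer cells of a type and less RNA per cell cannot be told apart.

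Tek, the receptor of angiopoietins, averaged 16.8 ± 1.46 and 13.8 ± 1.6 CPM in control and stressed females and 13.4 ± 1.13 and 14 ± 0.753 CPM in males, so its difference of 0.31 (SE 0.11, adjusted p 0.366) came mainly from females. Rgs5, a pericyte gene that damps G-protein signalling, differed by -0.19 (SE 0.06) in females and 0.11 (SE 0.06) in males. Kdr, the main VEGF receptor, and Abcc9, a subunit of the potassium channel of mural cells, had differences of 0.30 (SE 0.15, adjusted p 0.481) and 0.34 (SE 0.15, adjusted p 0.447). Not all vessel genes had effects on either side of 0. The efflux pump gene Abcb1a had effects of 0.0015 (SE 0.08) and 0.23 (SE 0.08). Slc2a1 was higher by 0.16 (SE 0.06) in females and lower, at -0.05 (SE 0.06), in males.

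Microglial markers leaned in the same direction. All 14 of 14 differences were above 0, with a median of -0.12 in females, 0.09 in males and 0.20 for the difference (0.13 to 0.28 over the alternatives). Of the 14, 3 passed an unadjusted p of 0.05 with opposite signs (background 4.59%), and the count was 9 without male control 5 and 2 without female control 5 or without male control 1. Among them were Cx3cr1, the receptor of fractalkine, and the purine receptor P2ry12, with differences of 0.24 (SE 0.10, adjusted p 0.397) and 0.27 (SE 0.11, adjusted p 0.416). Oligodendrocyte markers were also above 0 in 19 of 19 differences, with a median of -0.21 in females, -0.01 in males and 0.21 for the difference, and 0 of 19 had opposite signs at that level. That count was 5 without male control 5 and 4 without male stressed 3. In the fit with the striatal score it was 8, and the male median was 0.17. Of those 19, 8 were lower in stressed females at an unadjusted p under 0.05, against 7.41% of autosomal genes at that level in either direction. Their median difference was 0.14 at the lowest with 1 library left out and 0.36 with the striatal score. Without stress the oligodendrocyte score ranged from -0.13 to 0.36 for females and from -0.24 to 0.34 for males, and with stress from -0.21 to 0.04 and from -0.45 to 0.14. With that score as a covariate 61 genes, in place of 42, had opposite effects at an unadjusted p under 0.05 in each sex. The 14 astrocyte markers held 1 gene of each direction, beside 4.74% and 4.59% of autosomal genes. These were Fgfr3 and the glutamate transporter Slc1a2, with differences of -0.22 (SE 0.09, adjusted p 0.421) and 0.24 (SE 0.08, adjusted p 0.335).

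**Figure D4:**
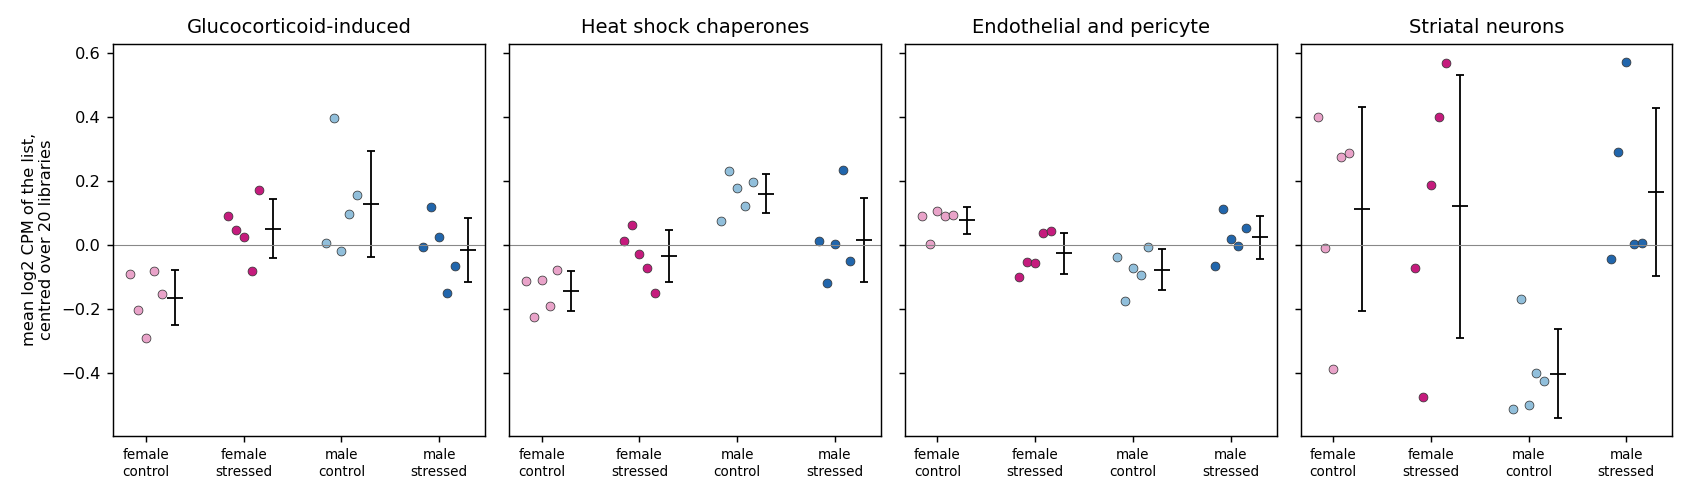
Score of 4 gene lists in each library, the mean log2 CPM of the list centred on 0 over 20 libraries (vertical axis); points are libraries and the cross and bars give mean ± SD of 5. Female controls have the lowest mean of the glucocorticoid-induced and heat shock scores and male controls the highest, and male controls have the lowest mean of the endothelial and striatal scores.

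Striatal neuron genes had the largest median difference of the 31 lists, with the male median far from 0 and the female median near it. All 20 of 20 were higher in stressed males at an unadjusted p under 0.05 (15.4% of autosomal genes passed that level in either direction), 0 of 20 passed it in females, and the medians were 0.59 in males, 0.05 in females and 0.53 for the difference. Their score lay between -0.51 and -0.17 in male controls and between -0.04 and 0.57 in stressed males, without overlap, while female controls (-0.39 to 0.40) and stressed females (-0.48 to 0.57) overlapped along most of that span. By sign alone, 5 of 20 had a female effect below 0 with a passing difference (Adora2a, Pde10a, Foxp1 and Ido1 among them), and there were 1 without female stressed 2 and 16 if female control 3 or female stressed 5 was left out. Over all autosomal genes 574 (4.59%) had this direction, and 409 (3.27%) without female stressed 2. With 1 library left out that autosomal count ran from 397 to 782. Adora2a, the adenosine receptor of indirect-pathway neurons, had a female effect of -0.03 (SE 0.19) and a male effect of 0.73 (SE 0.19). Pde10a, a striatal phosphodiesterase, had -0.05 (SE 0.20) and 0.76 (SE 0.20). The part of the dissected area in these levels was not tested.

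The first genes and the gene lists were also read with this score as a covariate. The score did not overlap between male controls and stressed males, so such a fit cannot fully separate it from the stress effect in males. Of the 12 first genes in each direction, 12 and 12 kept opposite signs in that fit, and Sgk1, Arrdc2, Trib1 and Cldn5 kept differences of -1.35, -0.90, -0.80 and 0.59. Camk2n1, Rassf3 and Calb1 had differences of 0.40, 0.44 and 0.36, each below the value without the score. The male effect of Rgs4 was -0.01 with the score and 0.37 without it. Of the 42 genes, 41 kept opposite signs. Among glucocorticoid-induced genes 12 of 21 were higher in females and lower in males in that fit, and among heat shock genes 5 of 20, beside a background of 6.05%. Several other lists had other counts in that fit. Activity genes had 7 of 17 higher in stressed females and lower in stressed males and 0 the other way, with a median difference of -0.35 in place of -0.01, MAPK feedback genes 4 of 13, AP-1 factors 3 of 6 and matrix genes 4 of 23. In the reverse direction, where the background was 5.21%, there were 5 of 14 astrocyte markers, 4 of 14 thalamic and septal markers, 3 of 9 choroid plexus and ependymal markers and 1 of 5 sex steroid receptor and aromatase genes.

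Channel and glutamate receptor genes with opposite effects were mostly lower in stressed females and higher in stressed males (background 4.59%). Of 27 pacemaker, sodium and calcium channel genes, 4 were lower in females and higher in males (Cacnb2, Cacnb4, Cacna2d3 and Scn4b), of 27 potassium channel genes 3 (Kcna2, Kcnj2 and Kcnq3), and of 28 glutamate receptor and scaffold genes 4 (Grin2b, Grm3, Grm5 and Homer1), with Shank1 the other way. In each of these lists 0 genes were lower in stressed females at an unadjusted p under 0.05 in females alone. Scn4b, a sodium channel subunit rich in striatum, had effects of -0.07 (SE 0.25) and 1.09 (SE 0.25), and Kcnq3, a subunit of the M current, -0.04 (SE 0.10) and 0.29 (SE 0.10). Kcna2, a channel of axons, was the only 1 of the 3 with a female effect beyond its SE, at -0.12 (SE 0.07) against 0.08 (SE 0.07) in males. With the striatal score as a covariate the lean was gone or turned: 1 was lower in females and higher in males against 3 the other way among pacemaker, sodium and calcium channels, and there were 2 of each among potassium channels and 2 of each among glutamate receptors. These counts also moved when single libraries were left out. For potassium channels there were 0 without female stressed 2 and 10 without female stressed 5. For pacemaker, sodium and calcium channels there were 2 without female stressed 1 or female stressed 2 and 7 without male control 5 or male stressed 5. For glutamate receptors there were 1 when female control 1 or 5, female stressed 2 or male stressed 3 was left out, and 7 without female control 3 or female stressed 5. The 22 GABA and glycine genes held Gabra4 alone, a receptor subunit with -0.05 (SE 0.10) in females and 0.46 (SE 0.10) in males. The 15 monoamine receptors held Htr1d alone, at 0.35 (SE 0.16, adjusted p 0.447). Without female stressed 2 both counts were 0. With the striatal score both were 2, beside 2 monoamine receptors the other way.

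Among 20 neuropeptide genes, 4 were higher in stressed females and lower in stressed males (Crh, Nts, Cartpt and Chga) and 1 the other way (Tac1), beside 4.74% and 4.59% of autosomal genes. Without female stressed 1 the first count was 2. For the stress effect in females alone, 0 of the 20 had an unadjusted p under 0.05, against 7.41% of autosomal genes. Their median difference was -0.12 but reached 0.09 with the striatal score as a covariate. Nts encodes neurotensin, a peptide of BNST neurons that project to the midbrain. Nts stood at 37.9, 40.1, 42.3, 34.6 and 41.3 CPM in females without stress and at 61.2, 41.5, 52, 38.1 and 37.1 CPM in females with it. Nts in males stood at 55.4, 51, 53.2, 50.8 and 45.3 CPM without stress and at 35.4, 33.4, 40.1, 39.9 and 42.7 CPM with it. The stressed males lay below all male controls, and stressed females 1 and 3 lay above all female controls while the other 3 mixed with them. For Nts the stress effect was 0.19 (SE 0.11) in females and -0.40 (SE 0.11) in males, a difference of -0.59 (SE 0.15, adjusted p 0.261). Crh encodes corticotropin-releasing hormone, the peptide that starts the hormonal stress response and acts locally in the BNST. Crh stood at 16.8, 16.5, 14.5, 17.7 and 17.4 CPM in females without stress and at 22.1, 14.9, 19.5, 19.1 and 11.4 CPM in females with it. Crh in males stood at 25.7, 23.3, 23.3, 24.6 and 25.2 CPM without stress and at 21.6, 18.7, 13.2, 18.9 and 16 CPM with it. Here the male groups were separate, and the female groups had nearly the same mean with a wider spread after stress. For Crh the stress effect was 0.05 (SE 0.14) in females and -0.50 (SE 0.13) in males, a difference of -0.55 (SE 0.19, adjusted p 0.354). The adjusted p of Nts ran from 0.0521 with DESeq2 to 0.555 over the alternatives, and that of Crh between 0.0963 (female stressed 5 left out) and 0.617 (female control 5 left out). Cartpt, a satiety and stress peptide, averaged 18.6 ± 2.21 and 20.6 ± 3.37 CPM in females and 23.2 ± 3.68 and 18.8 ± 3.38 CPM in males, a difference of -0.45 (SE 0.18, adjusted p 0.408). Tac1, the substance P precursor, had effects of -0.02 (SE 0.15) and 0.48 (SE 0.14).

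The Nts window, 250 bases before the RefSeq start (GRCm38.p6, chr10:102490419-102490668, minus strand), is shown because Nts had the smallest p of the peptide genes. Its matches to TGACG or CGTCA, the half-site of cAMP response elements, and to ACANNNTGT are in capitals.
Nts: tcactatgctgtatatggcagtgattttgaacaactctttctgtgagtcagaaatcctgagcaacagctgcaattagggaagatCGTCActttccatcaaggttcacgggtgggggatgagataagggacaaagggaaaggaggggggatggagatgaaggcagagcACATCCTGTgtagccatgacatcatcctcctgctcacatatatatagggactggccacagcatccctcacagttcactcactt
The half-site begins 166 and the second motif 83 bases before the start. The half-site, searched on both strands, occurred upstream of 10 of the 16 neuropeptide genes with a window (62.5%) and of 3026 of 9934 autosomal genes (30.46%).

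Receptors of these peptides held 3 genes of 25 that were higher in stressed females and lower in stressed males, and 0 the other way, beside 4.74% and 4.59% of autosomal genes. At an unadjusted p under 0.05 in females alone, 0 of the 25 were higher with stress. Vipr2, a receptor of the peptides VIP and PACAP, had effects of 0.31 (SE 0.17) and -0.36 (SE 0.16). Npy2r, a neuropeptide Y receptor on nerve terminals, had 0.01 (SE 0.08) and -0.23 (SE 0.08), and Mc4r, the melanocortin receptor, 0.05 (SE 0.13) and -0.41 (SE 0.12), so for both the female effect was within its error of 0. Leaving out female control 1 gave 1 such receptor, and leaving out female stressed 5 or male stressed 1 gave 5. Adcyap1, the PACAP gene, averaged 7.42 ± 3.44 and 6.5 ± 5.49 CPM in females and 6.55 ± 2.52 and 5.6 ± 2.5 CPM in males. Female stressed 2 alone measured 16.2 CPM, and the difference of -0.40 (SE 0.61, adjusted p 0.881) became 0.38 without that library. Fos, the early marker of neuronal activity, averaged 13.5 ± 1.54 and 14.9 ± 2.52 CPM in females and 19.7 ± 5.35 and 14.7 ± 3.47 CPM in males, a difference of -0.50 (SE 0.25, adjusted p 0.491).

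Metabolic and regulatory lists gave scattered members, to be read beside 4.74% of autosomal genes that were higher in stressed females and lower in stressed males and 4.59% with the reverse pattern. Of 20 cholesterol synthesis and uptake genes, 17 differences were below 0, against 49% of autosomal genes. The list's median difference of -0.08 was 0.0050 with the striatal score as a covariate. Of 21 clock genes, 2 were higher in stressed females and lower in stressed males, Per3 (0.36 in females and -0.07 in males) and Nfil3 (0.17 in females and -0.18 in males), while Dbp, a clock output gene, was higher by 0.38 (SE 0.10) in females and 0.39 (SE 0.10) in males. Of 17 zinc transporter and metallothionein genes, 3 were lower in females and higher in males: Slc30a1, the zinc exporter of the cell surface, with -0.24 (SE 0.05) and 0.04 (SE 0.05), Slc30a4 and the importer Slc39a10, a count that was 1 in the fit with the striatal score. Of 13 MAPK feedback genes, Spry4 and Spred3 were higher in females and lower in males. So were Slc38a2 and Lrrc8a of 9 osmolyte transport genes and Dnmt1 of 12 DNA methylation genes. With the striatal score the osmolyte list had 0 genes of that direction and 2 of the reverse. The DNA methylation count was 0 without female stressed 2. Of 17 activity genes, Klf4 was higher in females and lower in males and Ier5 and Homer1 the reverse. These counts turned to 7 and 0 with the striatal score as given above.

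Oxidative phosphorylation genes had 62 of 72 differences above 0 but medians of only -0.08 in females and -0.01 in males, and 1 of 72, Ndufs1 of complex I, had opposite signs at an unadjusted p under 0.05. No gene of either direction was found at that level among 69 cytosolic ribosomal protein genes, 23 matrix genes, 21 genes of the unfolded protein and integrated stress responses, 14 thalamic and septal markers, 9 choroid plexus and ependymal markers, 6 AP-1 factors, 6 hypothalamic markers and 5 sex steroid receptor and aromatase genes. All 6 AP-1 differences were below 0, with a median of -0.18, and 11 of the 23 matrix differences were above 0. These counts of 0 did not hold in every fit: AP-1 factors had 2 when female control 1, male control 1, male control 4 or male stressed 3 was left out, matrix genes had 3 without male control 5, and the counts with the striatal score as a covariate are given above.

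**Figure D5:**
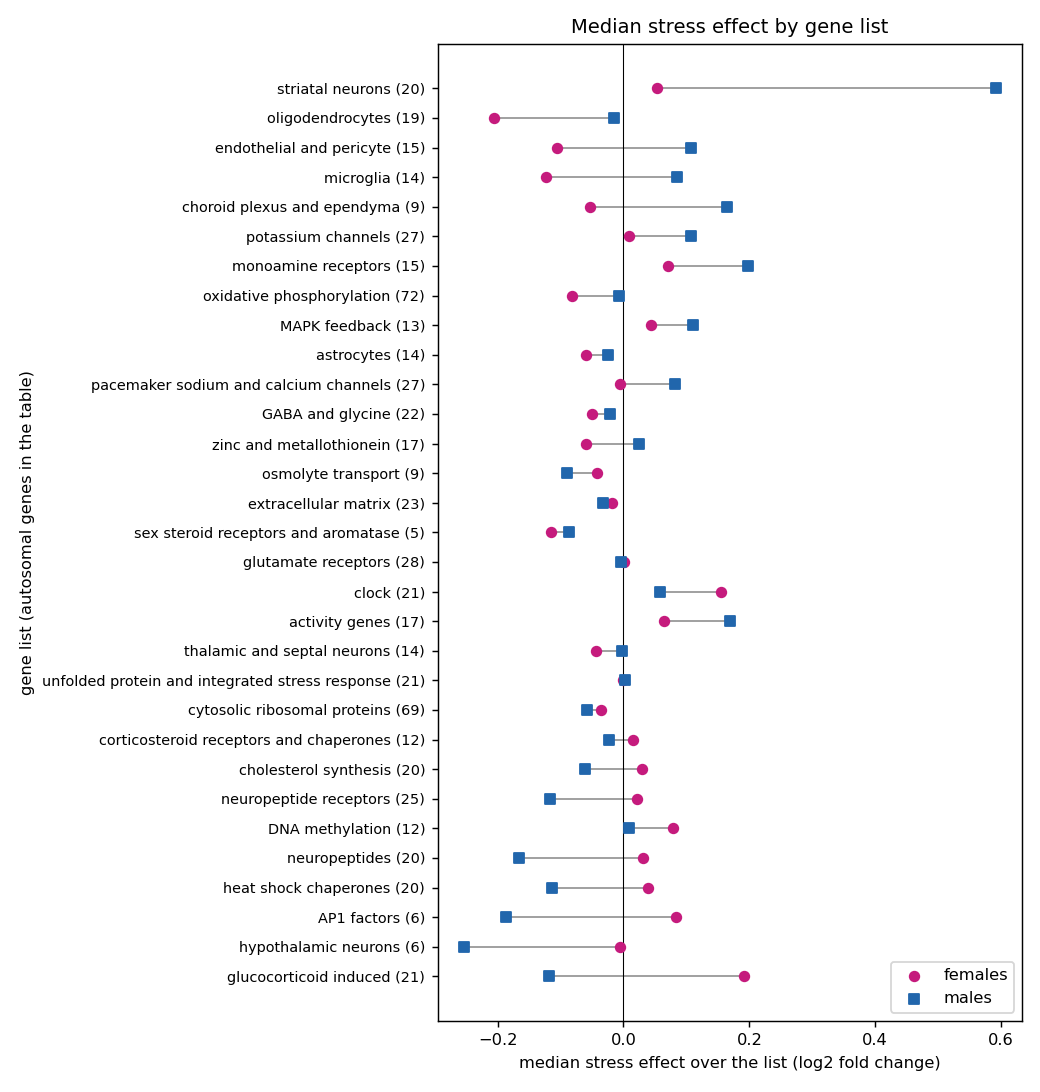
Median stress effect (log2 fold change, horizontal axis) over the autosomal members of each of 31 gene lists, whose numbers stand in parentheses, in females (circles) and males (squares), ordered by the median difference. The glucocorticoid-induced list has medians of 0.19 and -0.12 on either side of 0, and the striatal list has 0.05 and 0.59, both above 0.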

How the data were processed

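RNA was sequenced from 20 pooled tissue libraries. Per the labels' protocols the kit for mRNA libraries kept the strand, and STAR, featureCounts and the build mm10 are named in the submitters' processing notes without versions. The annotation and the strand setting of the counting are not given in the sources used here, so genes that overlap could share reads. The deposited values are the authors' raw counts, whole numbers for each gene symbol, and no gene had a row total under 1002. Chromosomes came from GENCODE M21 and RefSeq (GRCm38.p6), and promoter windows from RefSeq.

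Counts were fitted with edgeR 4.0.16 in R 4.3.3: TMM factors, filterByExpr (which removed 0 genes), 1 mean per group, the quasi-likelihood test (robust option off), and 3 contrasts (stress in females, stress in males, their difference). The common biological coefficient of variation was 8.83%. Two-sided p-values were Benjamini-Hochberg adjusted over 12988 genes. SE is the log2 fold change over the square root of its F statistic. The scripts were tested on simulated data. Total counts from 2707881 to 33595388 limit the precision of low genes in the shallow libraries.

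Named genes were autosomal: the 12 with the smallest interaction p in each direction of opposite effects (5 of each with library values); the 6 in each direction with the smallest larger p among genes at an unadjusted p under 0.05 in each sex; up to 4 of each of 31 lists; genes under an adjusted p of 0.10; and Crh, Nts, Adcyap1, Fkbp5 and Fos. Other list members, and the genes of the closing section, were named after their values were seen, and some list members are not reported here. The question, the members and the lists were chosen with earlier results of these data known. Scores used log2 CPM with a prior count of 2, computed from the deposited counts. Alternatives were DESeq2 1.42.0, its size factors, limma-voom (limma 3.58.1), the robust option, a mean of at least 10 CPM, no filter, striatal or oligodendrocyte scores as covariates, the replicate number as a block, each library left out, and female control 4 and female stressed 2 left out together.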

Additional observations from a re-analysis of the deposited data

Results flagged for a closer look

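Within groups of 5 libraries, 3 of 64 tested sets of values had a library whose gap to its nearest neighbour exceeded 0.71 of the whole range, and chance gives about 1 in 20. Cldn5 measured 18.8 CPM in female stressed 5, below 21.3 to 22.2 CPM in the other stressed females. It measured 27.2 CPM in male stressed 4, above 20.1 to 21.9 CPM in the other stressed males. Adcyap1 measured 16.2 CPM in female stressed 2 and 2.86 to 5.17 CPM in the other stressed females.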

How the results depend on the processing

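Single genes and small counts limit these results: 0 calls in the main test, 5 pools per group and 2707881 counts in the shallowest library. The number of genes called for the difference, 0 in the main analysis, was 3 with DESeq2 size factors. With DESeq2 it was 19 among autosomal genes and 22 among all genes. It was 3 among genes with a mean of at least 10 CPM, 10 with the oligodendrocyte score as a covariate and 1 with the striatal score. With 1 library left out it was 0 to 4. The 42 autosomal genes at an unadjusted p under 0.05 in each sex with opposite signs became 103 with the striatal score and 24 without female control 4 and female stressed 2, and 25 to 93 with 1 library left out. The 1167 genes with a passing difference and opposite signs stayed within 1.5 times that number in all alternatives. Signs reversed for the difference of Adcyap1, at 0.77 with the striatal score, 0.36 without female control 4 and female stressed 2, and -0.80 to 0.38 with 1 library left out (0.38 without female stressed 2). That of Fkbp5 was -0.12 to 0.023 with 1 library left out, the highest of these being without male control 2. The cause was not tested. Differences of the other named genes kept their sign, but stress effects within a sex did not always do so. Among the 12 first genes lower in stressed females and higher in stressed males, 11 kept opposite signs in all 20 left-out fits. In the other direction 12 of 12 did. Both counts follow in part from the choice of these genes by opposite signs and a small p in the same libraries. List medians moved by more than the spread within groups in 29 of 930 cases. Omitting the filter gave the same fit, since it removed 0 genes. Replicate numbers are shared by the groups but did not pair the libraries: 5 of 30 same-number pairs had deviations correlated above 0.1 (mean r -0.0845), and 1 of 20 libraries correlated best with its own number. With the replicate block there were 0 calls and 37 genes opposite in each sex.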

Other observations

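The X-linked gene Tsc22d3, which encodes GILZ, a leucine zipper protein induced by glucocorticoids, was left out of the counts above. It averaged 55.7 ± 4.52 CPM in unstressed females and 66.3 ± 11.9 CPM in stressed ones, and 86.6 ± 11.4 CPM in unstressed males and 63.8 ± 4.75 CPM in stressed ones. Its stress effects were 0.26 (SE 0.10) and -0.44 (SE 0.10), a difference of -0.70 (SE 0.14, adjusted p 0.116) in edgeR's test, and the stressed males lay below all male controls.

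Atp6ap1l, which encodes a protein similar to an accessory subunit of the vacuolar proton pump, had effects of nearly equal size on either side of 0. It averaged 7.76 ± 1.62 CPM in female controls, 5.93 ± 1.73 CPM in stressed females, 5.54 ± 0.811 CPM in unstressed males and 7.3 ± 1.55 CPM in stressed ones, and its stress effects were -0.42 (SE 0.18) and 0.41 (SE 0.17), with a difference of 0.83 (SE 0.25, adjusted p 0.306).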
